A study of Homo sapiens with 4 samples.

Results

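The cyclins, the cyclin-dependent kinases (CDKs) and the CDK inhibitors were examined in MDA-MB-231 Fluc cells, and 47 genes of these families had a row among the 13957 genes of the deposited table. They were found by symbol: CCN followed by a letter and at most 1 digit, CDK followed by a number with or without A or B, and CDKN1 or CDKN2 followed by a letter from A to D, which leaves out CCN1 and CCN2. RefSeq has 55 symbols of this form, and the other 8 (CCNB3, CCND2, CCNI2, CCNP, CDK3, CDK20, CDKN2A and CDKN2B) were not analysed here. The parent line MDA-MB-231 comes from a breast cancer without hormone receptors or amplified ERBB2, and the Fluc cells carry an inserted luciferase gene for imaging. In the study, 2 samples were treated with 50 μM cordycepin, which is 3' deoxyadenosine, and 2 samples with the vehicle DMSO, in both cases for 2 h. Total RNA was depleted of ribosomal RNA, and stranded libraries were read from both ends, 75 bases each.

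The table holds 1 mean level per gene over the libraries, as log2 CPM (counts scaled to the size of the library), and beside it the columns of the authors' own comparison of cordycepin with DMSO, which were not used here. Each level below is therefore a mean in which treated and vehicle cells are pooled, with no value per library and no error, and no difference between the treatments is given. The depth of each library is unknown for the same reason. Longer genes collect more reads, so genes were compared with each other on a second scale, log2 CPM per kilobase of the gene length in the table. Over all genes, the median was 4.58 on the log2 CPM scale and 2.43 on the scale per kilobase. A percentile gives the share of all genes at or below a gene.

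Cyclins bind and activate CDKs, and the inhibitors bind CDKs or their cyclin complexes and block them. D-type cyclins with CDK4 or CDK6, and E-type cyclins with CDK2, drive cells from G1 into S phase, while A- and B-type cyclins with CDK1 drive entry into mitosis. A separate branch acts in transcription: CDK7, CDK8, CDK9, CDK12 and their cyclins phosphorylate RNA polymerase II or work through Mediator. The G1/S, mitotic and transcriptional members, the inhibitors and the remaining members were taken in turn.

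The line was checked against marker genes first. All 6 markers of a mesenchymal breast line (VIM, CD44, CAV1, AXL, EGFR and MET) had a row, with levels between 8.11 and 11.01 on the log2 CPM scale. Of 7 genes listed as luminal or hormone receptor markers, FOXA1 (2.34), CDH1 (3.68), EPCAM (3.68), GATA3 (4.48) and ERBB2 (6.49) had lower log2 CPM than each of these. ESR1 and PGR were not analysed here. By log2 CPM, ERBB2 was at percentile 81.8 of all genes, while FOXA1, CDH1, EPCAM and GATA3 were below the median. Per kilobase, both ERBB2 and GATA3 were above the median of all genes. Of 6 markers of blood, endothelial, fibroblast and liver cells, COL1A1 (3.36) and COL1A2 (2.09), both on the log2 CPM scale, had a row, and PTPRC, CD3E, PECAM1 and ALB were not analysed here.

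Stretches of reference promoters are shown first, since promoters of mitotic genes are known for short elements that bear on when in the cycle they are active. A promoter here is the 300 bases of GRCh38.p14 from 250 before to 50 after the first start site that RefSeq lists. Of the 47 members, 43 had one. None was available here for CCND1, CDK2, CCNE2 and CDKN1C, so only 4 of the 7 G1/S members are covered. The cell cycle genes homology region, or CHR, is an element of mitotic promoters bound by the DREAM and MMB complexes, and it was searched as TTTGAA or TTCGAA. The letters CCAAT are the site of the factor NF-Y, and both elements were searched on both strands. Matches are in capitals, and positions count from the start site as 0.

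CCNB2, CHR letters at -29, chr15:59105105-59105134 (+): agcgacgcggtaTTTGAAtcctggaacaag
CDK1, CHR letters at -161, chr10:60778158-60778187 (+): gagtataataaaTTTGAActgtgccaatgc
CCNF, CHR letters at -85, chr16:2429350-2429379 (+): gggccgggtgcgTTTGAAaactggggtggg
CCNB1, CCAAT at -55, chr5:69167083-69167111 (+): gccacgaacaggCCAATaaggagggagca
CCNA2, CCAAT in reverse at -56, chr4:121823923-121823951 (-): gcgagcgctttcATTGGtccatttcaata
CDK19, transcriptional, CHR letters at -226, chr6:110816064-110816093 (-): gaaggttcagttTTTGAAatacggtttttg
CCNC, transcriptional, CHR letters at -182, chr6:99568979-99569008 (-): cattgttctgttTTTGAAgtcctggaagag

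The CHR letters were found in the promoters of 3 of 6 mitotic members (CCNB2, CCNF and CDK1), in 2 of 15 transcriptional members (CCNC and CDK19) and in 0 of 4 G1/S members. Of all 27305 promoters, 16.6% held them. CCAAT was found in 5 of 6 mitotic promoters, all but that of CCNA1, in 7 of 15 transcriptional promoters and in 0 of 4 G1/S promoters, against 35.7% of all promoters. These counts depend on the window. In the 100 bases around the start CCAAT was in 0 of 6 mitotic promoters, against 11.1% of all promoters. The nearest mitotic matches lay just outside that window, at -54 in CCNB2, -55 in CCNB1 and -56 in CCNA2. With any listed start site CCAAT was in 1 of 4 G1/S promoters (CCND3). In CCNB2 there were 4 CCAAT matches, at -244, -120, -87 and -54, in front of the CHR letters at -29. In CCNB1 there were 2, at -87 and -55, and no CHR letters. A match describes the reference sequence alone, and it was not tested against the levels.

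Other short motifs were counted in the same promoters on both strands. The GC box, GGGCGG, was in 34 of 43 member promoters against 44.6% of all promoters, and it was in all 4 G1/S and all 6 mitotic promoters. In the 100 bases around the start it was in 13 of 43 member promoters against 25.1% of all promoters, with 0 of 4 G1/S and 2 of 6 mitotic promoters among them. The E2F letters, TTTCGCGC, TTTGGCGC, TTTCCCGC or TTTGCCGC, were in 5 member promoters (CDK1, CDK11B, CDK19, CCNO and CDK10) against 3.33% of all. In CDK1 they lie 19 bases after the start, at chr10:60778339-60778368 (+): tttcctctttcTTTCGCGCtctagccaccc. The cAMP response element, TGACGTCA or TGACGTAA, was in the promoters of CCNA2 and CCNL1, against 2.44% of all. In CCNA2 it lies at -81, at chr4:121823946-121823975 (-): gtcgccttgaaTGACGTCAaggccgcgagc. ETS letters (CCGGAAG) were in 5 of 43 member promoters against 10.7% of all, TATAAA in 1 (CDK15) against 11.95%, and the AP-1 letters TGAGTCA or TGACTCA in 0 against 4.92% (1, CDK15, with any listed start site). GC content had a median of 64.7% over the member promoters and 58.3% over all promoters. Among the members it was lowest in CDK15 (35%), followed by CDK14 (38.7%), and highest in CCNQ (83.3%).

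**Figure D1:**
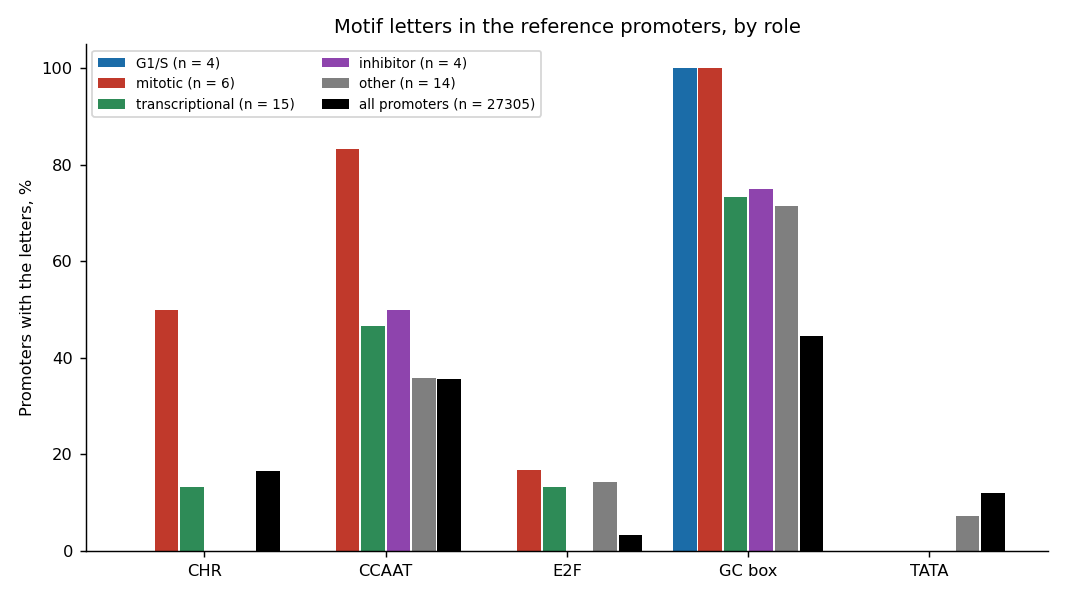
Share of reference promoters with the letters of 5 motifs, in percent, for each role and for all 27305 promoters (black). CCAAT is in 83.3% of the 6 mitotic promoters and 0% of the 4 G1/S promoters, so each bar for a role rests on few genes.

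Of the 7 G1/S members, CCND1 was the highest gene of the whole family. CCND1 encodes cyclin D1 (ENSG00000110092, chromosome 11, 69641156 to 69654474, GRCh38). Its level was 9.76 on the log2 CPM scale, at percentile 99.3, and 7.51 per kilobase. CCND3, the other D-type cyclin with a row, stood at 4.47 per kilobase, 8.26-fold below CCND1. The D- and E-type branches differed in the level of their cyclins, as CCNE1 and CCNE2, the E-type partners of CDK2, were at 2.47 and 2.45 per kilobase, close to the median of all genes. Together the E-type cyclins summed to 11.0 CPM per kilobase, against 205 for the D-type cyclins. In a bulk culture, few cells at the stage where a cyclin is made and little RNA in each of them cannot be told apart.

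The G1/S kinases lay closer to each other than their cyclins. CDK4 had 4.96, CDK2 had 4.45 and CDK6 had 3.72 on the log2 scale per kilobase, a range of 2.36-fold. On the scale not divided by length the order turned, with CDK6 highest at 7.34 log2 CPM, as its gene length in the table is 12239 bases against 3094 for CDK4. CCND1 exceeded CDK4 by 5.87-fold per kilobase, while CDK2 exceeded CCNE1 by 3.96-fold. All 7 G1/S members were above the median of all genes per kilobase, and 4 of them were in the highest 25%. CCNE1 and CCNE2 were only just above it, at percentiles 50.7 and 50.3. By log2 CPM, 6 of the 7 were above the median, with CCNE1 below it at percentile 36.8, and 5 were in the highest 25%.

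The mitotic members split into 4 high genes and 2 lower ones. CCNB1, which encodes cyclin B1 (ENSG00000134057, chromosome 5, 69167135 to 69178245, GRCh38), was at 8.53 log2 CPM and 7.25 per kilobase, at percentile 97.9 on the latter scale. CCNA2, the cyclin A of somatic cells, was at 5.85 per kilobase. Its partner CDK1, the kinase of mitotic entry, was at 5.52, and CCNB2 was at 5.16. The lower genes were CCNF, at 2.90 per kilobase, whose product is the substrate adaptor of a ubiquitin ligase and activates no known CDK, and CCNA1, a cyclin A mainly of the germ line, at 1.41. CCNA2 made up 95.6% of the summed level per kilobase of the A-type cyclins, and CCNB1 made up 80.9% of that of the B-type cyclins.

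The 15 transcriptional members were lower and more alike than the cell cycle members. Their median was 2.22 on the log2 scale per kilobase, against 4.45 for the G1/S and 5.34 for the mitotic members, and 2.43 for all genes. By log2 CPM the place against all genes turned, with 4.83 for the transcriptional members and 4.58 for all genes. Above the median of all genes were 6 of the 15 per kilobase and 11 of the 15 by log2 CPM. The median of 2.22 is the level of CDK8, whose length in the table is 3538 bases against 4741 bases of merged exons in GENCODE, and with GENCODE lengths the median was 1.90, the level of CDK19. The transcriptional members ranged over 9.62-fold, whereas the G1/S members ranged over 33.5-fold and the mitotic members over 57.2-fold. Of the 13 G1/S and mitotic members, 8 were above every transcriptional member per kilobase. In the highest 25% of all genes there were 2 of 15 transcriptional members, against 4 of 7 G1/S and 4 of 6 mitotic members. These are counts of genes in 1 pooled mean, and no test was made between the roles.

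**Figure D2:**
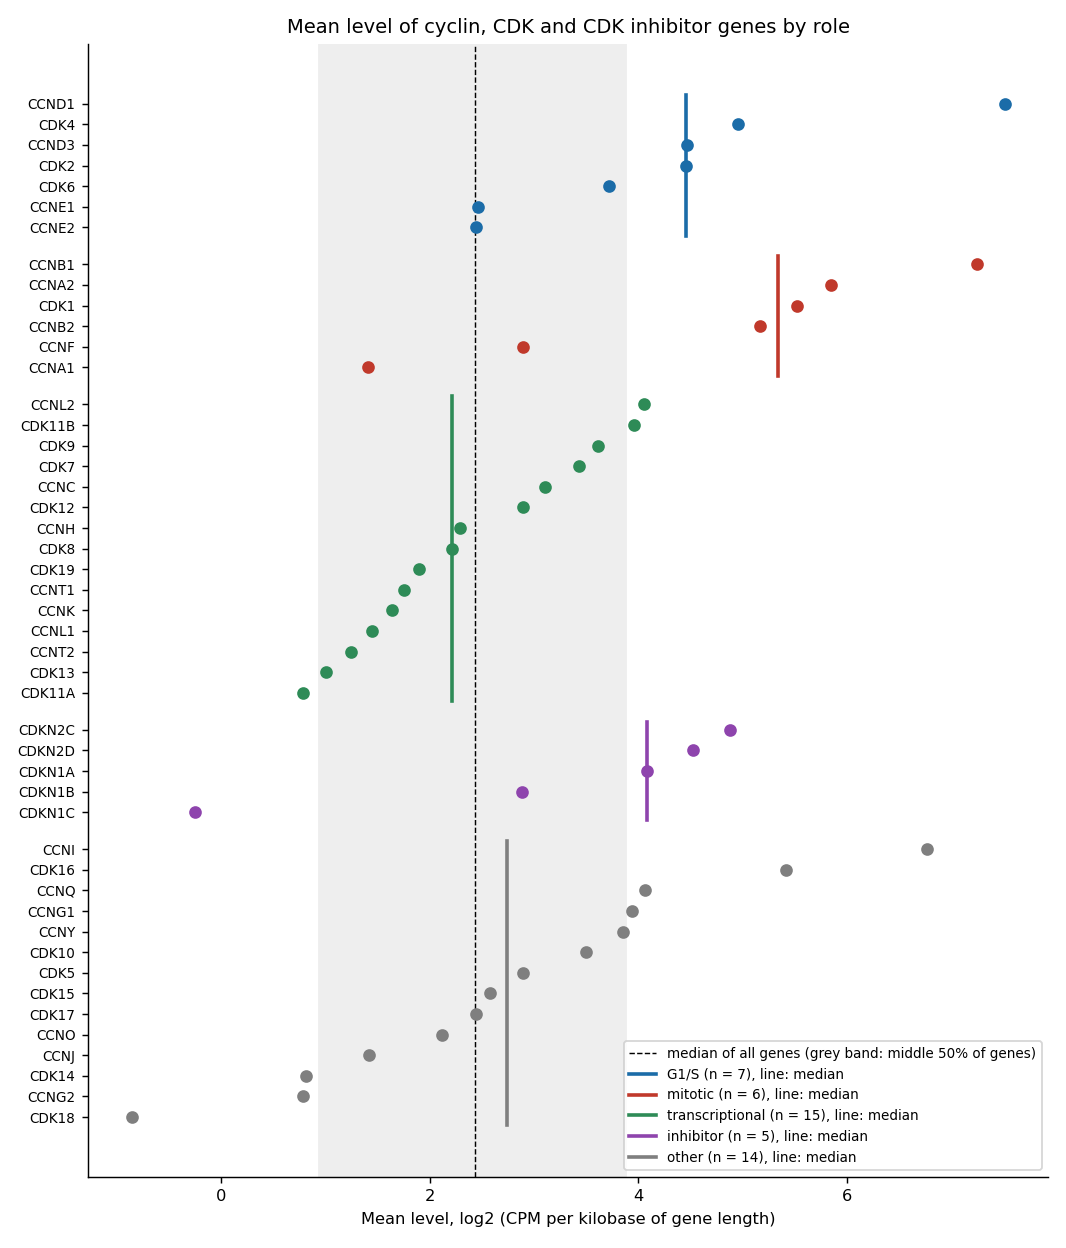
Mean level of each of the 47 members as log2 CPM per kilobase, by role, with the median of each role as a coloured line, the median of all 13957 genes as a dashed line and the middle 50% of genes in grey. CCND1 and CCNB1 are the highest, and 12 of the 15 transcriptional members are inside the grey band.

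Within the transcriptional branch, the 8 kinases had a median of 2.56 and the 7 cyclins a median of 1.76 on the log2 scale per kilobase. CDK9, the kinase of P-TEFb that releases paused polymerase, was at 3.61 on the log2 scale per kilobase. Its cyclins CCNT1 and CCNT2 were at 1.76 and 1.25, which is 3.62-fold and 5.16-fold lower. CDK7, which with cyclin H belongs to TFIIH and also activates the cell cycle CDKs, was at 3.43, and CCNH was at 2.30. The order of this pair turned on the other scales, with CCNH above CDK7 by log2 CPM (4.88 against 4.70) and per kilobase of coding length (4.92 against 4.65). In the Mediator kinase module CCNC, at 3.11 per kilobase, stood above CDK8 (2.22) and CDK19 (1.90). CDK12 was at 2.90, with its cyclin CCNK at 1.64 and CDK13, the other kinase of cyclin K, at 1.01. These orders also depended on the scale. CDK13 was above CCNK by log2 CPM (5.63 against 4.68). CDK19 was above CDK8 by log2 CPM (4.83 against 4.04) and per kilobase of coding length (4.24 against 3.56).

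CCNL2 was the highest transcriptional member, at 4.05 on the log2 scale per kilobase and 6.83 log2 CPM. It is a cyclin of CDK11 linked to splicing, and its relative CCNL1 was 6.09-fold lower, at 1.45. CDK11B and CDK11A were at 3.96 and 0.79, a difference of 9.02-fold. These copies lie 43367 bases apart on the same strand of chromosome 1, and their values cannot be assigned with certainty. In the canonical GENCODE transcripts, 81.4% of the stretches of 75 bases in CDK11A and 55.2% in CDK11B also occur in transcripts of another gene. CDK11B shared most with CDK11A (55.2%), but CDK11A shared most with ENSG00000268575 (65.6%), a long noncoding RNA gene without a row. Exons of that gene cover 48.1% of the CDK11A exons on the same strand. No other member shared over 1.63% of such stretches, and 42 of the 47 members shared none. How reads that match more than 1 of these genes were counted is not given in the sources used here.

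Gene length weighed most on the transcriptional members. Their median length was 6857 bases, against 4397 for the G1/S and 2775.5 for the mitotic members. CDK13, with 24618 bases, was at percentile 67.8 by log2 CPM and at percentile 26.0 per kilobase. Its length in the table is 5.43 times its coding length of 4536 bases. The canonical transcript alone has 9525 bases, and the length in the table also joins the exons of the other annotated transcripts, whichever of them the cells use. Per kilobase of coding length, a choice made after the values were seen, the medians were 4.24 for the transcriptional, 6.73 for the G1/S and 6.66 for the mitotic members. The transcriptional members were again the lowest of these 3 roles, while the G1/S and mitotic members changed places.

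**Figure D3:**
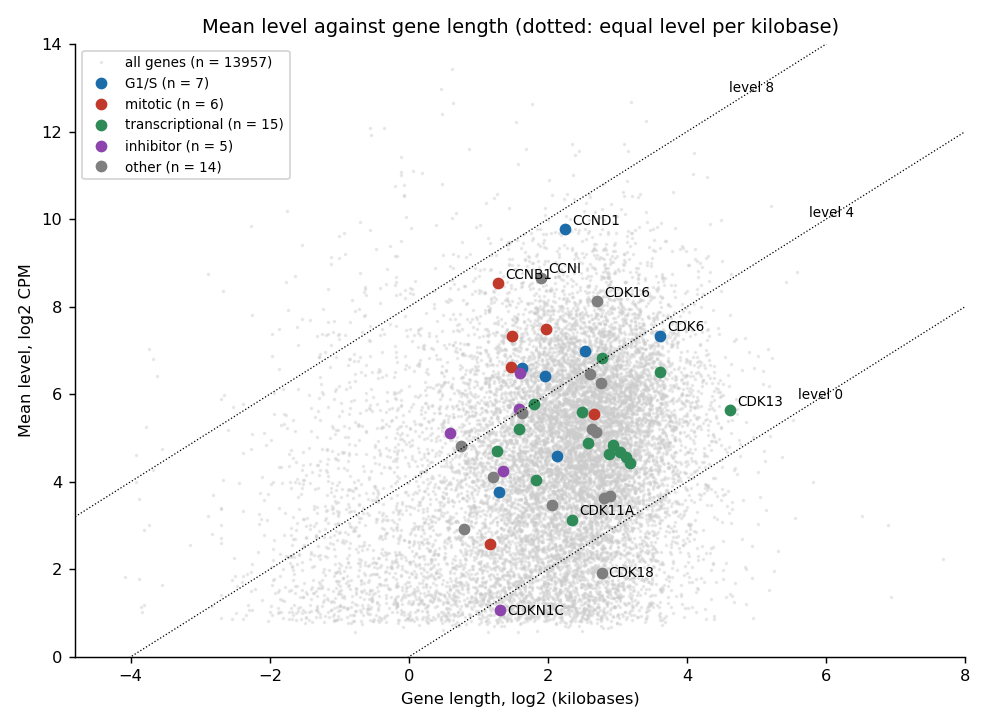
Mean level as log2 CPM against gene length in log2 kilobases for all 13957 genes (light grey) and the 47 members, coloured by role, where dotted lines join points of equal level per kilobase. The lines mark levels of 0, 4 and 8, with CCND1 (7.51) and CCNB1 (7.25) just below the line for 8 and CDK13 (1.01), the longest member, just above the line for 0.

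Of the CDK inhibitors, 5 had a row and 4 of them were above the median of all genes per kilobase. The INK4 inhibitors with a row, CDKN2C at 4.88 and CDKN2D at 4.53 on the log2 scale, had the highest levels per kilobase. INK4 inhibitors bind CDK4 and CDK6, and the others of this class, CDKN2A and CDKN2B, were not analysed here. CDKN1A stood above CDKN2D on the other scales, by log2 CPM (5.67 against 5.12) and per kilobase of coding length (6.69 against 6.12). The CIP/KIP inhibitors, which bind complexes of several cyclins and CDKs, covered a wider range. CDKN1A, a target of p53, was at 4.08, CDKN1B was at 2.89 and CDKN1C, an imprinted gene, was at -0.25. CDKN1C had 1.06 log2 CPM, at percentile 3.24 of all genes, and it was the lowest member on that scale. For CDKN1B (ENSG00000111276, chromosome 12, 12715058 to 12722369, GRCh38) the length in the table is 2565 bases, against 9255 bases of merged exons in GENCODE release 44. With the longer length its level per kilobase was 1.04 in place of 2.89, so its place among the inhibitors below CDKN1A held and its place above the median of all genes did not.

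Among the 14 members outside these roles, CCNI and CDK16 were as high as the mitotic genes. CCNI, an atypical cyclin abundant in postmitotic cells (ENSG00000118816), had 8.66 log2 CPM and 6.77 per kilobase. CDK16, a PCTAIRE kinase activated by cyclin Y, had 8.12 log2 CPM and 5.41 per kilobase, and CCNY, the cyclin concerned, had 6.46 log2 CPM and 3.85 per kilobase. The lowest by log2 CPM were CDK18 (1.92), CCNO (2.91), a gene of multiciliated cells, and CCNJ (3.47). CDK18 had -0.86 per kilobase and was the lowest of all 47 members on that scale. The 8 remaining members, named after their values were seen, were CCNQ, CCNG1, CDK10, CDK5, CDK15, CDK17, CDK14 and CCNG2, with levels from 4.06 for CCNQ to 0.78 for CCNG2 on the log2 scale per kilobase. CCNG1 exceeded CCNG2, the other cyclin G, by 8.93-fold.

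Several members are neighbours. CCNB1 and CDK7 lie 56550 bases apart on the same strand of chromosome 5, with levels of 7.25 and 3.43 on the log2 scale per kilobase. CCNI and CCNG2 lie 81218 bases apart on opposite strands of chromosome 4, with 6.77 and 0.78. CCNL2 and CDK11B lie 235892 bases apart on the same strand of chromosome 1, with 4.05 and 3.96. Per kilobase, neighbours thus had unequal levels in the first 2 of these pairs and close levels in the other. CCNL2 stood above CDK11B by log2 CPM (6.83 against 5.76) and per kilobase of coding length (6.19 against 4.53). The CDK11B value cannot be assigned with certainty. The nearest pair of all, CDK11B and CDK11A, is described above and had unequal levels. Exons of 17 members overlap exons of a gene on the opposite strand in GENCODE, and for 8 of them the overlap with 1 such gene covers over 10% of the member's exons. The largest overlaps were those of CCNK with CCDC85C (59.5%), CDK4 with TSPAN31 (44.2%) and CCNE2 with INTS8 (37.0%). The libraries were stranded, but whether the counting used the strand is not given in the sources used here, so the levels of these members may include reads of the partner.

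Of 24 genes that act on these complexes, 23 had a row and 20 of those were above the median of all genes per kilobase. The highest by log2 CPM were CDC20, an activator of the anaphase-promoting complex, at 8.38, CDC25B, a phosphatase that activates CDKs, at 7.61, and E2F1, a transcription factor of S phase genes, at 7.34. The lowest were CDK5R1, the activator of CDK5, at 3.03, CDC25C at 4.25 and CDC25A at 4.95. CKS2, a small CDK-binding protein gene of 616 bases named after its values were seen, had the highest level per kilobase of this list, at 7.54, next to 7.51 for CCND1. MNAT1 and HEXIM1 were also named after their values were seen. MNAT1, the assembly factor of the CDK7 and cyclin H complex, was at 3.07 per kilobase, between CDK7 (3.43) and CCNH (2.30), but above both by log2 CPM, at 5.03. HEXIM1, which holds P-TEFb inactive, was at 4.46 per kilobase, above CDK9 at 3.61, and HEXIM2 was not analysed here.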

How the data were processed

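RNA of 2 cordycepin and 2 DMSO samples of MDA-MB-231 Fluc cells was sequenced. Mapping by the authors was to GRCh38.p13, and reads were counted by rsubread. The authors' processing notes at GEO also list hg38, TopHat, HTSeq, DESeq and Cufflinks, with no role. The authors' deposited table gives 1 mean log2 CPM per gene over the libraries, and how the libraries were scaled and low genes filtered is not given in the sources used here. It also holds 4 columns of the authors' comparison (log2 fold change, F statistic, and p-values before and after adjustment), which were not used, so cordycepin was not compared with DMSO and no test was made. It has 0 columns of values per sample.

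The level per kilobase is the log2 CPM less the log2 of the gene length in the table over 1000. Of the members, 45 had a length within 10% of the merged exons of GENCODE release 44. Roles, lists, and the rule for genes named (all G1/S, mitotic, transcriptional and inhibitor members, and the 3 highest and 3 lowest others and partners) were chosen with earlier results of these data known. The level, motif and shared-stretch steps were tested on simulated data. Promoters came from RefSeq (GRCh38.p14). Alternatives were levels per kilobase, a mean, a filter on low genes, other roles, no CDK11 genes and other promoter windows. Tables were made in Python 3.11.15 (pandas 2.3.3, numpy 2.4.6), exact intervals with scipy 1.17.1 and plots with matplotlib 3.10.9.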

Additional observations from a re-analysis of the deposited data

How the results depend on the processing

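No paired analysis was possible because 1 mean over the libraries is given for each gene, and for the same reason no replicate could be left out. The spread between replicates being unknown, a median was taken as moved when it differed at 2 decimals. The medians on the log2 CPM scale were 6.59 for the G1/S, 6.98 for the mitotic, 4.83 for the transcriptional, 5.12 for the inhibitor and 4.97 for the other members. In the same order, they were 4.45, 5.34, 2.22, 4.08 and 2.74 per kilobase of the length in the table, and 4.45, 5.35, 1.90, 4.08 and 2.74 per kilobase of GENCODE merged exons, an alternative chosen after seeing the data. Per kilobase of coding length, also chosen after seeing the data because protein sequences were not used here, they were 6.73, 6.66, 4.24, 6.12 and 4.66. Means in place of medians were 6.49, 6.35, 5.03, 4.51 and 4.996 on the log2 CPM scale. Without the lowest 25% of all genes, the mitotic median was 7.33, the inhibitor median 5.39 and that of the other members 5.14. With CCNA2 counted as G1/S, and CDK7 and CCNH left out, the G1/S median was 6.79 and the mitotic median 6.62. Leaving out CDK11A and CDK11B moved no median. In each of these 7 alternatives the transcriptional median or mean was the lowest of the G1/S, mitotic and transcriptional roles. The order of G1/S and mitotic members turned with the mean, the coding length and the second roles. The mean, the filter on low genes, the second roles and the version without CDK11 genes were computed on the log2 CPM scale only. They were not computed per kilobase, the scale on which the roles were compared above.

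The share of mitotic promoters with the CHR letters was 50.0% (exact 95% binomial interval 11.8% to 88.2%). In the 100 bases around the start it was 16.7%, and it was 0% for the transcriptional and 2.33% for all member promoters there, against 5.05% of all promoters. The exact intervals, from the 300 bases, were 1.66% to 40.5% for the transcriptional and 3.89% to 25.1% for all member promoters. Both shares in the 100 bases fell below them. The share of all promoters also fell with the shorter window, from 16.6% to 5.05%, so this says nothing particular about the members. The members are a fixed list of genes, so the intervals measure no spread between samples. With TTTGAA alone, or with any listed start site (chosen after seeing the data), the CHR shares stayed within the exact intervals. The mitotic interval rests on 6 promoters and also holds the 16.6% of all promoters, so staying within it decides little.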
